A study of Mus musculus with 10 samples.

Results

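Cell cycle and DNA replication genes were followed through a bone marrow culture: 43 listed genes, of which 42 could be measured, out of 19938 named genes on the array. A gene counted as measured where a probe set carried its symbol alone, and the probe set with the highest mean stood for the gene. The list held 17 genes of the G1/S transition and of DNA synthesis, all measured and called replication genes here, and 26 genes of G2 and mitosis, 25 of them measured and called mitosis genes here. Ccnb1, the main cyclin of mitotic entry, had no probe set of its own symbol and is not analysed here.

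Marrow was flushed from long bones of male Swiss mice aged 4 to 6 weeks, and its mixed cells were grown in αMEM with 10% fetal calf serum and 1,25(OH)2D3 (calcitriol, the active form of vitamin D), under which osteoclasts form from marrow precursors. The 5 adiponectin groups received recombinant mouse adiponectin, a hormone of fat cells, at 5 µg/ml, and the series' title states that lipopolysaccharide, a bacterial endotoxin, contaminated the preparation. The 5 control groups are called vehicle-treated in one label and untreated in another. Groups were taken at 4, 10, 24, 72 and 120 h with 1 array each, 10 arrays in all. The labels do not say how many animals gave the marrow or whether cultures were separate, so every p-value below reflects the spread from array to array alone, which may be technical. Values are log2 signals, the number of arrays limits their precision, and array medians lay between 8.27 in the 10 h control and 8.48 in the 24 h control. At 4 h markers of most marrow lineages lay above the array median, and those of T and NK cells mostly below it. There 0 of 12 mature neutrophil, 0 of 10 early granulocyte, 3 of 13 B lineage and 1 of 13 macrophage genes lay below the median on both arrays, as did 3 of 11 stem and progenitor, 5 of 14 stromal and osteoblast and 11 of 13 T and NK genes. Of 12 erythroid genes 6 lay below it on the adiponectin array and 7 on the control array, and of 10 osteoclast genes 1 and 3. Each array measures a mixture, in which fewer dividing cells and less of a transcript per cell cannot be told apart.

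A dividing cell commits to S phase when cyclin E and its kinase release E2F factors, which switch on genes for loading the MCM helicase at origins, for the replication fork and for nucleotide supply. Later in the cycle cyclin A, cyclin B and CDK1 drive entry into mitosis, and a second set of genes builds the spindle, attaches chromosomes to it and destroys the cyclins again. In bone marrow most of these transcripts come from proliferating progenitors of the blood lineages, and mature neutrophils and osteoclasts have left the cycle.

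Most mitosis genes fell between 4 and 120 h of culture, and most replication genes did not pass the test. With both arms in 1 fit, 19 of 25 mitosis genes and 2 of 17 replication genes had a falling slope on log2 hours, and 0 of 42 a rising one (limma, Benjamini-Hochberg adjusted p under 0.05 over all genes; by the unadjusted p it was 26 negative slopes and 0 positive). Over all 19938 genes 8.67% fell and 9.81% rose. The median slope was -0.14 log2 units per doubling of culture time for mitosis genes and -0.05 for replication genes, against 0.01 for all genes. The difference between the classes was not tested, since members of a class are not replicates. The counts rested on the ends of the series: without the 4 h pair 5 of the 42 genes fell, and without the 120 h pair 8 fell. The fit takes both arrays of a time as independent. On their mean 13 genes fell, and the calls of Aurka, Aurkb, Cenpe, Foxm1, Mcm3, Plk1, Tpx2 and Ttk were lost (limma adjusted p from 0.0563 to 0.145).

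**Figure D1:**
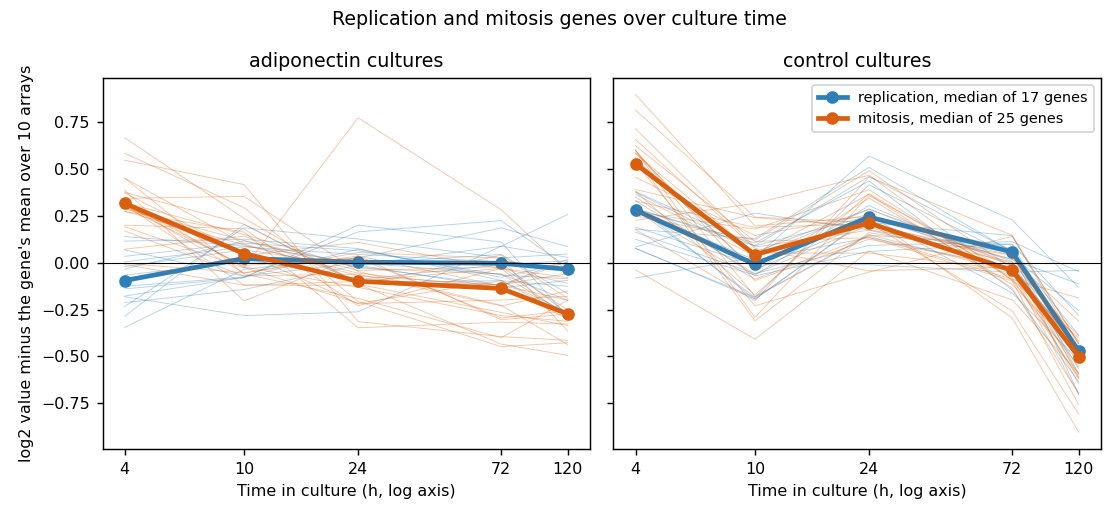
Gene-centred log2 values (value minus the gene's mean over 10 arrays, y axis) over culture time in hours (log axis), in adiponectin cultures at left and control cultures at right. Thin lines are single genes and thick lines the class medians. In adiponectin cultures the mitosis median ran from 0.32 at 4 h to -0.27 at 120 h while the replication median stayed between -0.10 and 0.02, and in control cultures both medians were lowest at 120 h.

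The motor and spindle proteins held the steepest slopes. Kif11, the kinesin that pushes spindle poles apart, had 10.94, 10.51, 10.16, 9.84 and 9.78 at 4, 10, 24, 72 and 120 h in adiponectin cultures, against 11.17, 10.47, 10.52, 9.98 and 9.37 in control cultures. Both arms were highest at 4 h and lowest at 120 h, and they overlapped. The 4 h value was 2.23-fold the 120 h value with adiponectin and 3.48-fold in control, and the slope over both arms was -0.28 ± 0.03 per doubling (SE; limma adjusted p = 0.000132). Nusap1, which bundles spindle microtubules, had 10.88, 10.59, 10.09, 9.85 and 9.87 with adiponectin, against 11.11, 10.54, 10.51, 10.04 and 9.49 in control, a slope of -0.26 ± 0.03 (limma adjusted p = 0.000137). Of the 6 genes of this group 5 fell, the others being Kif23, the kinesin of the central spindle (-0.16), Dlgap5, a protein of kinetochore fibres (-0.16), and Tpx2, which activates Aurora A on the spindle (-0.14). Kif20a, another kinesin of cytokinesis, had a slope of -0.08 and did not pass (limma adjusted p = 0.0836).

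Among 6 kinetochore and chromosome proteins 4 fell. Mki67, which encodes the proliferation marker Ki-67, had 11.94, 11.81, 11.08, 11.00 and 10.98 with adiponectin from 4 to 120 h, against 12.05, 11.47, 11.35, 11.37 and 10.89 in control. Its values at 4 h were the highest of both arms, and its slope was -0.20 ± 0.03 (limma adjusted p = 0.000849). Top2a, the topoisomerase that untangles sister chromosomes, fell by 0.20 per doubling (limma adjusted p = 0.000745). That call came from 1 of its 2 probe sets, with a mean level of 10.46 against 4.30 for the other, and it was lost when they were averaged (limma adjusted p = 0.0678). The kinetochore genes Cenpf (-0.15) and Cenpe (-0.13) fell as well. Ndc80, which binds microtubules at the kinetochore (-0.06; limma adjusted p = 0.100), and Birc5, the survivin subunit of the Aurora B complex (-0.03; limma adjusted p = 0.661), did not pass.

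Regulators of mitosis were also mostly called. Of 8 cyclins, kinases and their transcription factor 6 fell: Ccna2 (-0.14), Ccnb2 (-0.14), Aurkb (-0.13), Plk1 (-0.12), Aurka (-0.12) and Foxm1, the factor that drives G2/M transcription (-0.09). On the mean of both arrays of a time the calls of Ccna2 and Ccnb2 held and those of the other four were lost. Cdk1, the kinase of mitotic entry, did not pass, at -0.06 (limma adjusted p = 0.285). It had 10.75, 10.64, 10.66, 10.73 and 10.65 with adiponectin, against 11.01, 10.88, 11.25, 10.73 and 10.30 in control. The adiponectin values stayed within a narrow band, and the control values spanned it on both sides. Of 5 genes of the spindle checkpoint and the anaphase-promoting complex 4 fell: the checkpoint genes Bub1b (-0.14) and Ttk (-0.14), the activator Cdc20 (-0.14) and the ubiquitin-conjugating enzyme Ube2c (-0.12). Bub1, a checkpoint kinase, was at -0.09 (limma adjusted p = 0.134).

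Of the replication genes 2 of 17 passed, a share near the 8.67% of all genes that fell. Both are subunits of the MCM helicase. Mcm2 had 10.73, 10.68, 10.59, 10.53 and 10.39 with adiponectin from 4 to 120 h, against 10.97, 10.68, 10.84, 10.43 and 10.07 in control (slope -0.11 ± 0.03; limma adjusted p = 0.0128). Mcm3 had 9.58, 9.59, 9.54, 9.37 and 9.20 with adiponectin, against 9.75, 9.57, 9.90, 9.32 and 8.83 in control (slope -0.12 ± 0.03; limma adjusted p = 0.0355). In both genes 120 h was the lowest time of both arms. The call of Mcm3 was lost on the mean of both arrays of a time (limma adjusted p = 0.109). Neither call held without the 4 h pair (limma adjusted p of 0.0564 for Mcm2 and 0.0533 for Mcm3) or without the 120 h pair (0.175 and 0.432), and that of Mcm3 was also lost without the 10 h (0.0835) or the 72 h pair (0.0875). The other 4 MCM genes had slopes between -0.09 (Mcm7) and -0.03 (Mcm6). The licensing genes Cdc6, which loads the helicase (-0.05), Cdt1, its partner (0.00), and Gmnn, which encodes geminin, the inhibitor of Cdt1 (0.03), did not pass.

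Of the 3 G1/S regulators and 5 genes of the fork and nucleotide supply 0 passed in either direction (0 also at an unadjusted p under 0.05). E2f1, the transcription factor of S-phase entry, was at 0.04, and the cyclin E genes Ccne1 and Ccne2 were at -0.02 and -0.07. Pcna, the sliding clamp, was at -0.03, and Rrm1 and Rrm2, which encode ribonucleotide reductase, were at -0.03 and -0.08. Tyms, thymidylate synthase, was at -0.08 and Tk1, thymidine kinase, at 0.04. The limma adjusted p of these 8 genes lay between 0.202 and 0.774.

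A look at differences among the 5 times, without assuming a slope, gave the same order of classes: 17 of 25 mitosis genes and 1 of 17 replication genes, Mcm3, changed (limma F test, adjusted p under 0.05), against 14.4% of all genes. The test takes the adiponectin and the control array of a time as its replicates after 1 constant treatment term (4 residual degrees of freedom). A difference between the arms that shifts with time thus counts as spread. Without the 4 h pair 6 of the 42 changed and without the 120 h pair 4. Top2a lost its call on the mean of its probe sets (limma F test, adjusted p = 0.378). Between neighbouring times 0 members passed in any of the 4 steps. The background shares, rising and falling, were 0 and 0.00502% from 4 to 10 h, 0.231 and 0.01% from 10 to 24 h, 1.5 and 2.95% from 24 to 72 h, and 0.376 and 0.777% from 72 to 120 h. At an unadjusted limma p under 0.05, 13 mitosis and 0 replication genes were lower at 10 h than at 4 h, and 6 mitosis and 4 replication genes were lower at 120 h than at 72 h. The median 4 to 10 h difference was -0.35 for mitosis genes and -0.07 for replication genes, and the median 72 to 120 h difference was -0.27 for each. The 10 h control array had the lowest array median (8.27), and the control drop from 4 to 10 h depended on scaling. There the gene-centred mitosis median went from 0.53 to 0.04 as deposited. It went from 0.45 to 0.12 after repeated quantile normalization and from 0.54 to 0.19 after median centring. With adiponectin it went from 0.32 to 0.05, 0.31 to 0.08 and 0.33 to 0.06.

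**Figure D2:**
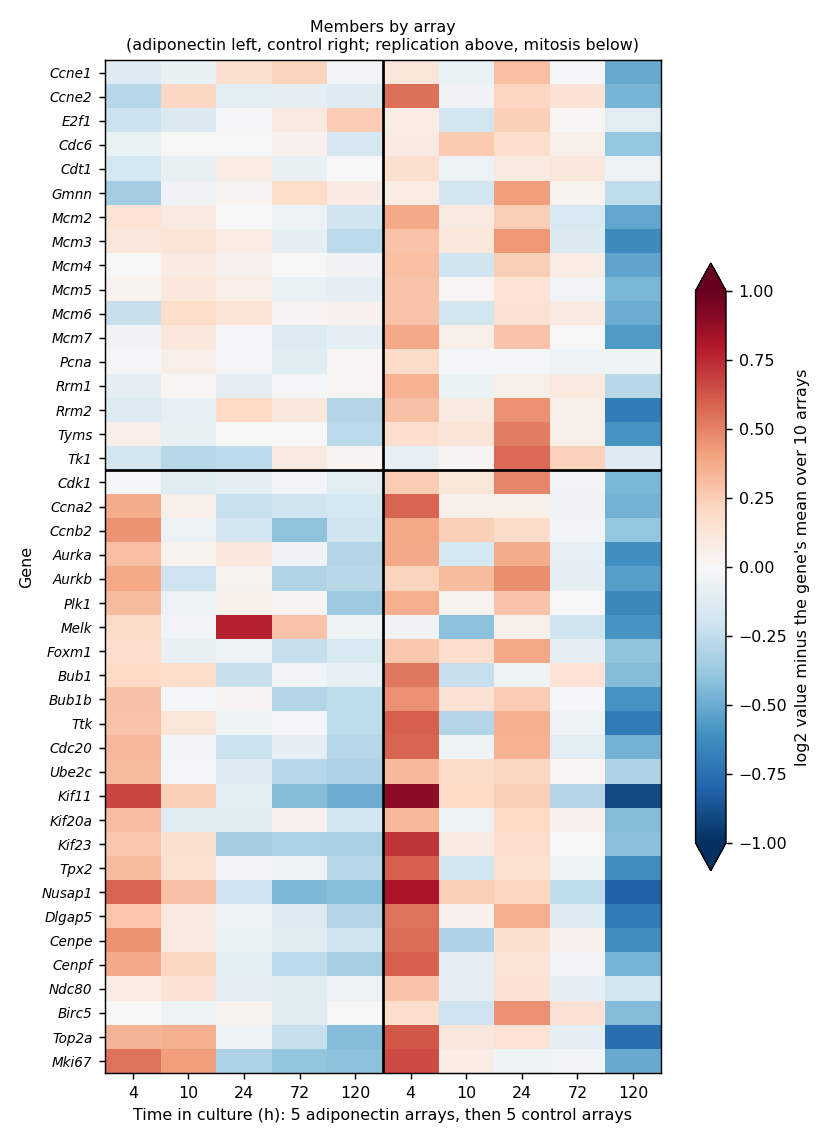
Gene-centred log2 value of each of the 42 genes (rows, replication above mitosis) on each array (columns, 5 adiponectin arrays and then 5 control arrays, by hours in culture). Red is above and blue below the gene's mean over 10 arrays, and the darkest blue column is the 120 h control, the lowest control array for 39 of 42 genes.

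Promoters are shown for the 3 mitosis genes with the steepest called slopes, for both called replication genes and for the gene called for adiponectin, since E2F sites are textbook elements of S-phase genes, and cell cycle homology region (CHR) and CCAAT elements of G2/M genes. Each window runs from 250 bases before to 50 bases after the gene's start in RefSeq (GRCm38.p6), 5′ to 3′ on the gene's strand. Capitals mark matches, on both strands, to the letters searched: for E2F the site TTGGCGC, the variant TTCGCGC, the variant TTCCCGC and the variant TTGCCGC, for the CHR the site TTTGAA and the variant TTCGAA, and the CCAAT box, where adjoining or overlapping matches form 1 run. The windows are chr19:37376132-37376431 (plus strand) for Kif11, chr2:119618048-119618347 (plus) for Nusap1, chr7:135716330-135716629 (minus) for Mki67, chr1:20820263-20820562 (minus) for Mcm3, chr6:88898731-88899030 (minus) for Mcm2 and chr4:44300667-44300966 (plus) for Melk.
Kif11: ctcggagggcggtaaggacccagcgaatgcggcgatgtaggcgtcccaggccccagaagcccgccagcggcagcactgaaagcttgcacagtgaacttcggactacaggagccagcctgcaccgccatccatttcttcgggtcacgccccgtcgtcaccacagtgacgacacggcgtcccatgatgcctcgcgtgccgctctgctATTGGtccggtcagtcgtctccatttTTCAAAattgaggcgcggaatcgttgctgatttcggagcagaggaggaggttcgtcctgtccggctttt
Nusap1: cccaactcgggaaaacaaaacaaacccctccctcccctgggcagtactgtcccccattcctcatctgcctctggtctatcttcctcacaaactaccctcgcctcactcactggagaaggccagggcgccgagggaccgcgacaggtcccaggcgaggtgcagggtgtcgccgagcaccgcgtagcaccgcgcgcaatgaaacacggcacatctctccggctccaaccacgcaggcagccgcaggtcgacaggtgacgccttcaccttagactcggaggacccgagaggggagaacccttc
Mki67: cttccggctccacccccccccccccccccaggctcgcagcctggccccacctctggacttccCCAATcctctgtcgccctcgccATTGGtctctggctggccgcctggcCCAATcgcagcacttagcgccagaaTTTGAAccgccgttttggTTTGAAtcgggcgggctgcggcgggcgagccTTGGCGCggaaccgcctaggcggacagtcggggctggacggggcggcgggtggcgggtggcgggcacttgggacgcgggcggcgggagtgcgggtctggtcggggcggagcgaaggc
Mcm3: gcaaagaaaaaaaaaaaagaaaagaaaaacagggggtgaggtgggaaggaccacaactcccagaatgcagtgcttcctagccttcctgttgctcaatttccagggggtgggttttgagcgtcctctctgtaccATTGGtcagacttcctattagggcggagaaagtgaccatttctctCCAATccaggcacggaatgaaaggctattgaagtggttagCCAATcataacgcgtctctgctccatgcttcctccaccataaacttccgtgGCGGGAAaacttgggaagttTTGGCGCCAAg
Mcm2: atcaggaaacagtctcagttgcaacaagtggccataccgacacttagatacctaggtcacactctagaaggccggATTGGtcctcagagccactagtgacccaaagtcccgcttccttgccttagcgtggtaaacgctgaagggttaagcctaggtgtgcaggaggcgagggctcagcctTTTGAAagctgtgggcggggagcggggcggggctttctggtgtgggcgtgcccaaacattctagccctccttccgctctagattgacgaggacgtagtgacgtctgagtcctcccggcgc
Melk: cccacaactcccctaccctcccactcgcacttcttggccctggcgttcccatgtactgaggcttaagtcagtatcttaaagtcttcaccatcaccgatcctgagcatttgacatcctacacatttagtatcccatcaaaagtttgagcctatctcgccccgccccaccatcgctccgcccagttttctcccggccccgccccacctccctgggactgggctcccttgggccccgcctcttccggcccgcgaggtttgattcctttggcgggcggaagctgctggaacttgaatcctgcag

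The windows of Kif11 and Mki67 held CHR and CCAAT letters, that of Mki67 also an E2F site, and that of Mcm3 held 3 E2F matches, of which 2 overlap on opposite strands, and no CHR. Mcm2 held a CHR and a CCAAT but no E2F match, and the windows of Nusap1 and Melk held none of the letters searched. Windows were found for 33 of the 42 measured genes. Among the 19 mitosis windows 15 (78.9%) held a CHR, 15 a CCAAT and 14 (73.7%) both, while 2 (10.5%) held an E2F site. Among the 15 replication windows, of 14 genes, 9 (60%) held an E2F site, 9 a CCAAT and 2 (13.3%) a CHR. Over all 32851 windows 9.57% held an E2F site, 19.2% a CHR, 37.4% a CCAAT and 7.52% both a CHR and a CCAAT. The matches are a description of letters and were not set against binding.

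Within the adiponectin arm the mitosis genes had falling slopes and the replication genes were spread around 0. The median slope was -0.11 for mitosis and -0.00 for replication genes, and all 25 mitosis but 9 of 17 replication slopes were negative. Kif11 (-0.24), Nusap1 (-0.22), Mki67 (-0.22), Top2a (-0.17) and Ube2c (-0.12) passed, 5 of 42 genes and all of mitosis, against 3.46% of all genes falling and 4.15% rising in that arm. No replication gene passed (0 falling and 1 rising at an unadjusted limma p under 0.05). Without the 10 h pair Kif11 and Nusap1 kept their calls and Mki67, Top2a and Ube2c lost theirs, and without the 4 h, the 72 h or the 120 h pair 0 members passed. With the arm fitted alone 10 mitosis genes passed. The call of Top2a was lost on the mean of its probe sets (limma adjusted p = 0.561).

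Within the control arm nearly all slopes were negative in both classes. The median slope was -0.15 for mitosis and -0.09 for replication genes, and 25 of 25 and 16 of 17 slopes were negative. Mcm2 (-0.16) was the 1 of 17 replication genes that fell, a share near that of all genes. Of the 42 genes 13 fell, the other 12 of mitosis, against 4.45% of all genes falling and 4.64% rising. The largest were again Kif11 (-0.32), Nusap1 (-0.29) and Top2a (-0.23), followed by Dlgap5 (-0.20). On the mean of its probe sets Top2a lost its call (limma adjusted p = 0.111). Of these 13 calls 11 were lost without the 4 h pair, where Kif11 and Nusap1 kept theirs, 12 were lost when the 72 h pair was left out, and all 13 when the 120 h pair was. With the arm fitted alone 3 members passed, and after centring each array on its median 22 did. The order of the arms by number of calls was thus turned when each was fitted alone, with 10 in the adiponectin arm and 3 in the control arm.

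The test of the difference between the arms' slopes called 0 of 42 members, and 0% of all genes in either direction. Of the 42 estimates 40 were positive, which means a slope less negative or more positive with adiponectin, among them 17 of 17 replication genes (median 0.09) and 23 of 25 mitosis genes (median 0.06), against a median of -0.02 over all genes. At an unadjusted limma p under 0.05 the estimates of Ccne1 (0.13 ± 0.04) and Rrm2 (0.15 ± 0.04) were positive and 0 were negative, with a limma adjusted p of 0.499 for each. Ccne1 had 9.73, 9.78, 10.02, 10.08 and 9.83 with adiponectin from 4 to 120 h, against 9.98, 9.79, 10.16, 9.84 and 9.35 in control. Rrm2 had 10.59, 10.65, 10.93, 10.84 and 10.44 with adiponectin, against 11.02, 10.82, 11.19, 10.79 and 10.03 in control. Both genes were lower with adiponectin at 4 to 24 h and higher at 72 and 120 h.

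**Figure D3:**
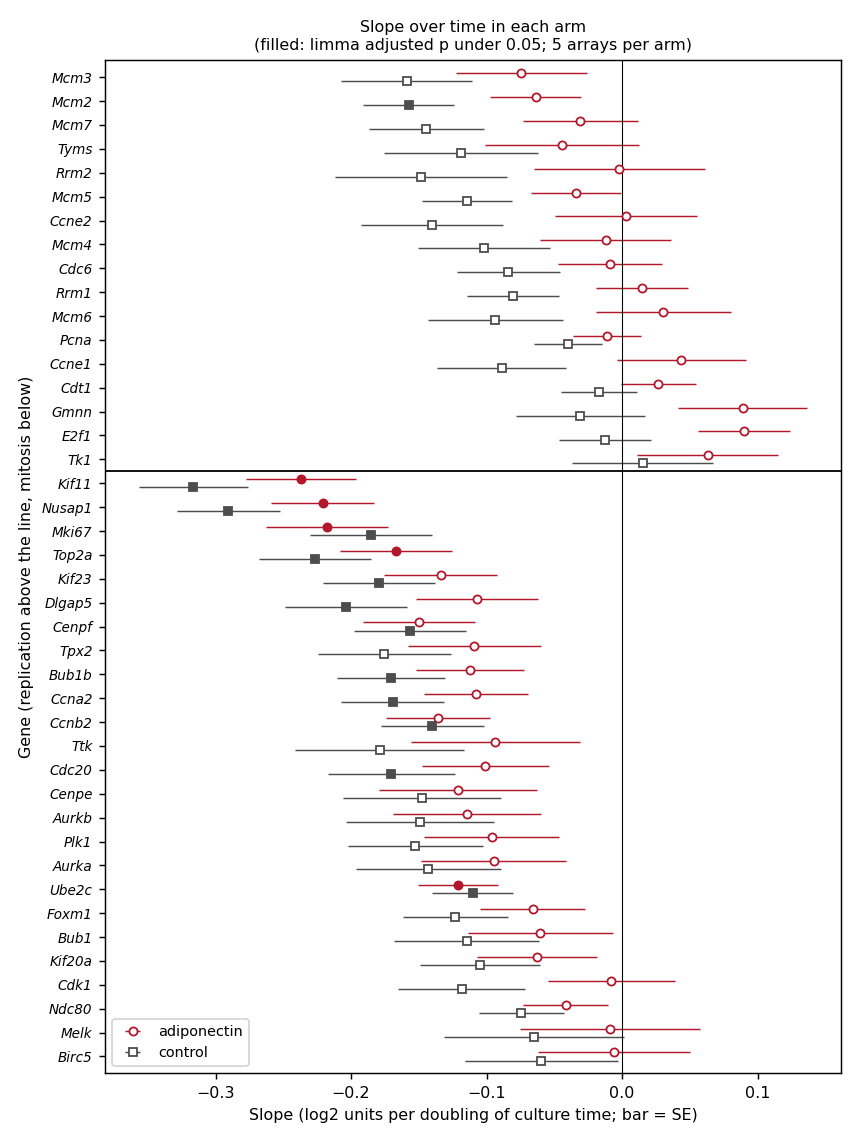
Slope of each gene in log2 units per doubling of culture time (x axis, bars are the SE) in adiponectin (red circles) and control cultures (grey squares), with filled symbols for a limma adjusted p under 0.05 in that arm. Replication genes are above the line and mitosis genes below it. The filled symbols are 5 in the adiponectin arm, all below the line, and 13 in the control arm, 12 of them below it. With each arm fitted alone the counts were 10 and 3.

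The time at which a gene was highest or lowest differed between classes and arms. With adiponectin 21 of 25 mitosis genes were highest at 4 h, against 2 of 17 replication genes, of which 8 were highest at 10 h and 4 at 72 h. In control cultures 20 of 25 mitosis genes and 9 of 17 replication genes were highest at 4 h, and 7 replication genes were highest at 24 h. The lowest value was at 120 h for 21 of 42 genes with adiponectin and for 39 of 42 in control. The median change over the series, 120 h minus 4 h, was 0.04 for replication and -0.60 for mitosis genes with adiponectin, and -0.74 and -1.05 in control. Each of these values rests on 1 array per time and arm and has no test. Highest and lowest times were not counted over all genes, so these counts cannot be called particular to the members.

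The balance between the classes was taken as the replication median minus the mitosis median of gene-centred values. It was -0.41, -0.03, 0.10, 0.13 and 0.24 at 4, 10, 24, 72 and 120 h in adiponectin cultures, and -0.25, -0.05, 0.03, 0.10 and 0.03 in control cultures. In each arm the balance was lowest at 4 h and higher at 24 h. Centring on each gene's own mean makes a trend change sign, so the sign does not tell which class had more signal. The control value at 24 h was 0.0019 after repeated quantile normalization. Medians and means differed most in the 120 h control, where the means over genes gave 0.14, against 0.18 in the 120 h adiponectin culture.

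Melk was the 1 of 42 genes called between adiponectin and control cultures over the 5 pairs, a share near the 2.05% of all genes that rose. Melk encodes a kinase of the AMPK-related family found in progenitors and dividing cells. It had 9.05, 8.83, 9.63, 9.14 and 8.81 at 4, 10, 24, 72 and 120 h with adiponectin, against 8.82, 8.45, 8.92, 8.66 and 8.27 in control. It was higher with adiponectin in 5 of 5 pairs, as were 6.32% of all genes, and the values of the arms overlapped across times. The mean difference was 0.47 ± 0.18 on the log2 scale (SD, n = 5 pairs; 95% interval 0.28 to 0.65; limma adjusted p = 0.0119), where 2.05% of all genes rose and 0.371% fell. The call was lost without the 24 h pair (limma adjusted p = 0.0584). It was also lost without the time block (limma adjusted p = 0.641) and with log2 hours in its place (limma adjusted p = 0.340).

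**Figure D4:**
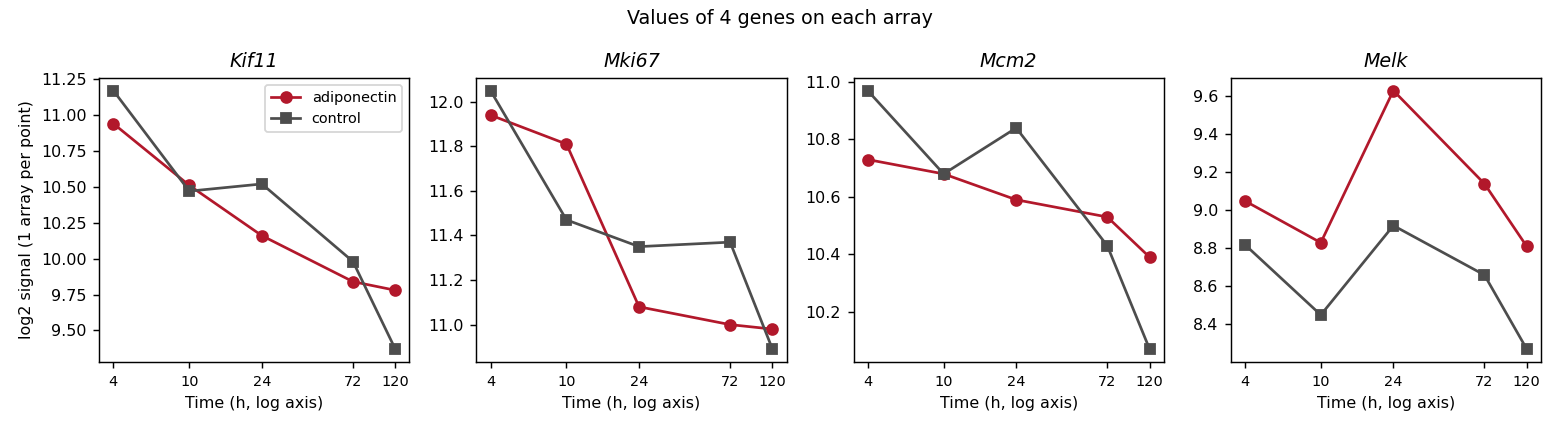
Log2 signal (y axis, 1 array per point) of Kif11, Mki67, Mcm2 and Melk over culture time in hours (log axis) in adiponectin (red circles) and control cultures (grey squares). Kif11, Mki67 and Mcm2 cross over between the arms, and Melk lies above control at all 5 times.

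No other member passed, and 0 fell (0 also at an unadjusted limma p under 0.05). The median difference was -0.03 for replication and -0.06 for mitosis genes, against 0.01 for all genes. The largest differences short of the threshold were negative: Tk1 at -0.25 ± 0.37 (SD, n = 5 pairs; limma adjusted p = 0.554), Kif23 at -0.22 ± 0.29 (limma adjusted p = 0.515) and Ube2c at -0.17 ± 0.16 (limma adjusted p = 0.521). Tk1 had 9.85, 9.75, 9.77, 10.12 and 10.06 with adiponectin, against 9.95, 10.06, 10.60, 10.26 and 9.90 in control. Its largest gap, at 24 h, came from a high control value.

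Time by time, the small means covered differences of opposite sign. With 1 array per group these differences have no test. At 4 h 39 of 42 genes were lower with adiponectin, among them 17 of 17 replication genes, where 43.1% of all genes were lower. The median was -0.29 for replication and -0.21 for mitosis genes. The largest was Ccne2, at 8.35 with adiponectin and 9.19 in control, the 1 gene lower by over 1.5-fold, where 1.56% of all genes were, and 0 were lower by over 2-fold, where 0.12% of all genes were. The genes above control were Melk, Aurkb and Ccnb2.

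At 24 h 41 of 42 were lower with adiponectin, where 48.1% of all genes were lower, with medians of -0.24 for replication and -0.31 for mitosis genes. Tk1 (-0.84), Cdk1 (-0.59), Cdc20 (-0.56), Kif23 (-0.52) and Tyms (-0.52) were the lowest and Melk the 1 gene above control. Tk1 and Cdk1 were the 2 genes lower by over 1.5-fold at 24 h, where 1.98% of all genes were, and Melk the 1 gene higher by that much, where 2.35% were. Past 2-fold there were 0 members in either direction, against 0.226% of all genes lower and 0.853% higher. At 120 h 41 of 42 were higher with adiponectin, where 43.5% of all genes were higher, with medians of 0.34 and 0.32. Mcm6 (0.54), Melk (0.53), Mcm4 (0.49) and Ccne1 (0.48) led, and Ube2c, at 10.78 in each arm, was the exception. These counts were 37 to 39, 39 to 40 and 39 to 42 genes at 4, 24 and 120 h under repeated quantile normalization, median centring or the mean of probe sets.

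At 10 and 72 h the members had no common side. At 10 h 27 of 42 were higher with adiponectin, where 64.6% of all genes were higher, and the count depended on scaling, with 18 higher after repeated quantile normalization and 15 after centring each array on its median. The median over members was 0.05 as deposited, -0.05 and -0.09, and that over all genes was 0.07, -0.02 and -0.07. The kinetochore and chromosome genes stood highest, with 6 of 6 above control and a median of 0.27, and the cyclins, kinases and their transcription factor lowest, with 2 of 8 above control and a median of -0.17. At 72 h 30 of 42 were lower, where 53% of all genes were lower, and the median was -0.07.

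**Figure D5:**
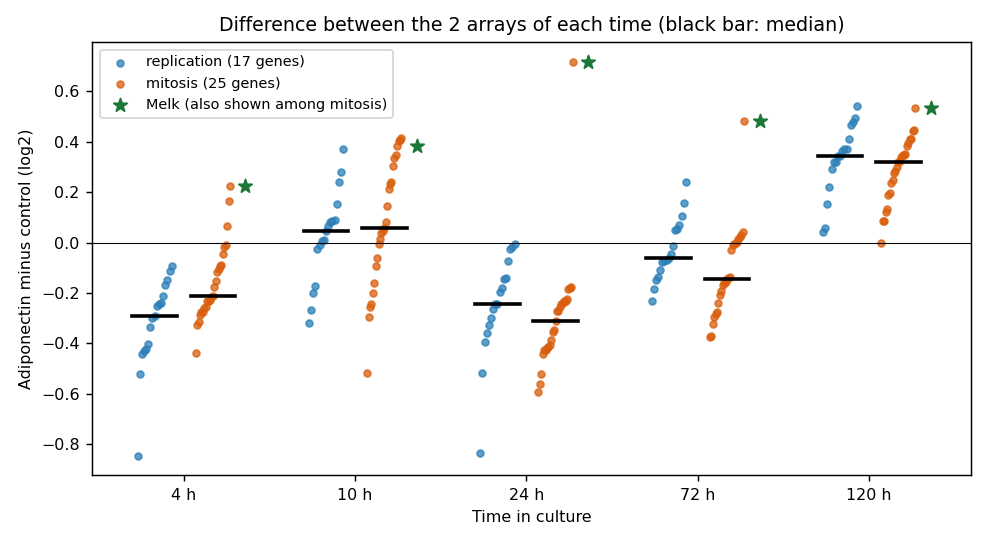
Difference between the adiponectin and the control array of each time (y axis, log2, adiponectin minus control) for 17 replication and 25 mitosis genes, 1 point per gene, with the class median as a black bar and Melk repeated as a green star. Nearly all points lie below 0 at 4 and 24 h and above 0 at 120 h, and they lie on both sides at 10 and 72 h.

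Of the 42 genes 38 were lower with adiponectin at 4 and 24 h and higher at 120 h, a pattern picked after its values were seen and found in 17.5% of all genes. It held for 17 of 17 replication and 21 of 25 mitosis genes, the exceptions being Aurkb, Ccnb2, Melk and Ube2c. After repeated quantile normalization 34 of 42 genes had it, where 14.5% of all genes did, and Cdt1, Kif20a, Kif23 and Mcm6 dropped out. After median centring and with the mean of probe sets 37 genes had it, against 18.0% and 17.4% of all genes. Mcm6 had the pattern in the deposited values, with a 24 h difference of only -0.02. It had 9.84, 10.26, 10.20, 10.10 and 10.12 with adiponectin from 4 to 120 h, against 10.36, 9.89, 10.22, 10.17 and 9.58 in control. Its adiponectin values lay within the range of the control values. The pattern was also present in 35 of 51 further replication genes and in 54 of 60 further mitosis genes (30 and 48 after repeated quantile normalization).

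Markers of early granulocytes shared this pattern at the times that define it, but differed from most members at 10 and 72 h. At 10 h their summed signal was lower with adiponectin, while most members were higher in the deposited values, a count that depended on scaling. At 72 h their summed signal was higher with adiponectin, while most members were lower. Of 10 early granulocyte and primary granule genes, such as Mpo and Elane, 9 had the same pattern, and the summed linear signal of the 10 was 35142, 27276, 20041, 10218 and 5426 with adiponectin from 4 to 120 h, against 42700, 33927, 28480, 9115 and 3460 in control. Nkg7 had the largest gap of the list at 72 and 120 h, at 10.00 and 10.01 with adiponectin against 8.90 and 7.68 in control. The late gap of the sums rests partly on it. With adiponectin Nkg7 was at 10.01 at both 24 and 120 h, while Elane fell from 12.12 to 10.00. At 120 h Gfi1, Ms4a3 and Prss57 were higher with adiponectin by only 0.09, 0.08 and 0.06. All 10 fell over time in the fit of both arms (median slope -0.67), where 8.67% of all genes fell. Of the 10, 4 with adiponectin and 7 in control were below the array median at 120 h. The pattern was found in 0 of 12 erythroid, 3 of 11 stem and progenitor, 1 of 13 B lineage, 1 of 13 T and NK, 2 of 13 macrophage, 2 of 12 mature neutrophil and 0 of 10 osteoclast genes, and in 7 of 14 stromal and osteoblast genes. The macrophage and mature neutrophil shares were near the 17.5% of all genes that had the pattern. Over time 7 of 11 stem and progenitor, 8 of 13 B lineage, 6 of 12 erythroid and 11 of 12 mature neutrophil genes fell. In turn 9 of 10 osteoclast, 8 of 14 stromal and 5 of 13 macrophage genes rose. Over all genes 8.67% fell and 9.81% rose. The summed signal of the erythroid genes was 11696 at 4 h, 3782 at 72 h and 4974 at 120 h with adiponectin. In control it was 13023, 4762 and 5683. At 120 h Tfrc was the highest of the list, at 11.55 with adiponectin and 11.75 in control, against 11.01 and 11.30 at 4 h. Alas2 went from 12.52 at 4 h to 7.69 at 120 h with adiponectin and from 12.66 to 7.96 in control. The part of these cell types in the results above was not tested.

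Further genes of the same pathways, from lists that leave out the members, were counted in the same way. Of 60 further mitosis genes 40 fell over time and 0 rose (median slope -0.13), where 8.67% of all genes fell and 9.81% rose. Ckap2l (-0.24), Knl1, the kinetochore scaffold (-0.23), Nuf2, a subunit of the NDC80 complex (-0.23), and Kif14, a kinesin of cytokinesis (-0.23), were the steepest. Of 51 further replication genes 7 fell and 0 rose (median -0.06), led by Ticrr (-0.22) and Cdc45 (-0.18), which take part in firing origins, then Gins3 (-0.12) and Rfc4 (-0.12). For the adiponectin effect 1 of the 51 replication and 0 of the 60 mitosis genes passed (limma; 2 of the 60 were higher and 1 lower at an unadjusted p under 0.05), and the 1 of 51 is near the 2.05% of all genes that rose. The gene was Dck, a kinase of nucleoside salvage.

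Among genes that set the pace in G1, 9 of 16 cyclins, kinases and activators fell over time and 2 rose (median slope -0.13), against 8.67% of all genes falling and 9.81% rising, so the share that rose was near that of all genes. E2f2, a factor of S-phase entry (-0.31), Ccnd3, cyclin D3 (-0.27), and Cdc25a, a phosphatase that activates cyclin-dependent kinases (-0.24), fell, while Ccnd1, cyclin D1, rose (0.30). Ccnd1 had 10.41, 10.63, 10.77, 12.02 and 11.90 with adiponectin from 4 to 120 h, against 10.61, 10.98, 11.72, 12.06 and 11.63 in control. Both arms were higher at 72 and 120 h than at 4 h. Of 21 cell cycle inhibitors and pocket proteins 8 fell and 2 rose (median -0.07), the share rising again being near that of all genes. Cdkn2b, which encodes the kinase inhibitor p15, rose by 0.37 ± 0.05 per doubling (limma adjusted p = 0.000377), with 8.39, 8.24, 8.54, 9.23 and 10.00 with adiponectin, against 8.19, 8.05, 8.84, 9.50 and 10.10 in control. The repressors E2f8 (-0.25) and Btg2 (-0.21) and the inhibitor Cdkn2d (-0.21) fell. No gene of either list passed for adiponectin (limma; at an unadjusted p under 0.05, 1 G1 gene was higher and 2 lower, and 0 inhibitors).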

How the data were processed

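RNA from 10 cultures was hybridised to Affymetrix whole-transcript arrays, 1 per time and arm. The deposited values are log2 signals per probe set, made by the authors with RMA. The submitters' processing notes name Partek and Affymetrix Expression Console too, with no version in what was used here, and signal over background is unknown. RMA includes quantile normalization, so a change common to most transcripts would be largely taken out.

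Of 35556 probe sets, 21789 had 1 gene symbol in the platform annotation, 1621 had several and 12146 none. Through Entrez IDs 0 symbols changed and 91 IDs were outside RefSeq. Only 3 members had more than 1 probe set (Pcna, Tk1 and Top2a).

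Tests used R 4.3.3 with limma 3.58.1 (two-sided, eBayes after lmFit, adjusted over all 19938 genes). The adiponectin effect had the time point as a block (4 residual degrees of freedom), to which its change with log2 hours was added (3). The pairing comes from the times in the labels, and pair differences correlated across genes at 0.11 to 0.64. Slopes on log2 hours had no block (7, or 6 with a slope per arm), which takes both arrays of a time as independent. Scripts were tested on simulated data.

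Members and lists were chosen with earlier results of these data known. Genes outside the members were named only as the 4 largest called per list, or as markers. Alternatives were repeated quantile normalization, median centring, a filter on dim genes, a trended robust prior, the mean of probe sets, other designs and leaving out each time pair.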

Additional observations from a re-analysis of the deposited data

Results flagged for a closer look

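Bub1b, the spindle checkpoint kinase gene, had a difference of 0.34 (log2, adiponectin minus control) at 120 h that stood apart from its differences at the other 4 times, which lay between -0.28 and -0.15. The gap to the nearest of them was 0.789 of the whole range, above the limit of 0.71 for 5 values. Its values were 9.25 with adiponectin and 8.91 in control at 120 h. Chance marks about 1 in 20 such sets of 5 values if all are drawn alike, which values of different times need not be, and 42 genes were examined. The direction was not particular to Bub1b: 38 of the 42 members, Bub1b among them, were lower with adiponectin at 4 and 24 h and higher at 120 h. The cause was not tested.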

How the results depend on the processing

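No call of a member reversed under any alternative run. Kif11, Nusap1 and Mki67 kept their slope over time in each alternative. Without the replicate block (no pairing by time), or with log2 hours in its place, 0 members rose with adiponectin in place of 1 (limma adjusted p of Melk 0.641 and 0.340); the block changed no other call, since 0 fell and 0 changed with time in each. Differences among times without a treatment term gave 11 members, 11 of mitosis and 0 of replication, and a trended robust prior 3 of replication. The slope over time on the mean of both arrays of a time gave 13 members down, 12 of mitosis and 1 of replication, and median centring 4 of replication. In the adiponectin arm 8 mitosis genes fell after quantile normalization, 8 after median centring and 10 with the arm fitted alone, and 1 replication gene rose after quantile normalization. In the control arm 22 members fell after median centring and 3 with the arm fitted alone, 3 of mitosis and 0 of replication; replication genes down were 2 after quantile normalization, 4 after median centring and 3 with ranked times. Past 2-fold 0 members differed at 4 or 24 h. Leaving out a time pair gave 0 to 1 members up for adiponectin; 4 to 20 changed among times (0 to 2 of replication, 4 to 19 of mitosis); 5 to 21 down over time (0 to 2 and 5 to 19); 0 to 4 down with adiponectin (0 to 4 of mitosis); and 0 to 13 down in control (0 to 2 and 0 to 12). The causes were not tested, beyond the fewer arrays that leaving out a pair brings.

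With 1 array per time and arm, differences at single times have no test, and small differences of dim genes do not show a lack of change. Signal over background was not given.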

Other observations

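Genes of the DNA damage response and of p53 were counted over culture time, where 8.67% of all genes fell and 9.81% rose. The difference between both lists was not tested. Of 15 DNA damage and recombination genes, 7 fell and 0 rose (median slope -0.10 log2 units per doubling of time). Neil3, a DNA glycosylase, fell by 0.22, Bard1, the partner of BRCA1, by 0.19, Brca2 by 0.15 and Fancd2 by 0.14. Of 15 p53 target genes, 5 rose and 2 fell (median 0.05), with Phlda3 at 0.34, Eda2r at 0.30, Zmat3 at 0.17 and Sesn1 at 0.13 the largest. Phlda3 had 9.42, 9.18, 9.70, 10.47 and 11.02 with adiponectin from 4 to 120 h, against 9.31, 9.45, 10.12, 10.37 and 10.95 in control, and both arms were highest at 120 h. For the adiponectin effect 0 of these 30 genes passed (limma; 1 p53 target was higher and 1 lower at an unadjusted p under 0.05).

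Dck, which encodes deoxycytidine kinase of the nucleoside salvage pathway, was the 1 of 51 further replication genes called for adiponectin, a share near the 2.05% of all genes that rose. It had 10.03, 10.43, 10.71, 10.25 and 10.33 with adiponectin from 4 to 120 h, and its highest control value was 9.78, at 10 h, so the arms did not overlap. Its mean difference was 0.82 ± 0.36 (SD, n = 5 pairs; limma adjusted p = 0.00309), higher in 5 of 5 pairs.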
